A study of Mus musculus with 2 samples.

Results

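Tslp, Il7, Crlf2 and Il7r encode a pair of related cytokines and the chains of their receptors. They were taken by gene symbol, as 4 of the 27998 genes in the count matrix. The 4 genes were selected on their measured UMI levels across these cell classes, which were already known, so those levels are described here and not tested. The cells came from the whole mesentery of 2 untreated male wild-type C57BL/6N mice, digested with the enzyme blend Liberase DH. Single-cell libraries were made with version 2 of the 10x Chromium 3′ chemistry, 1 library per mouse. The labels give a date of birth and no age at harvest, and both animals form a single group, so every comparison is between cell classes within the same 2 mice.

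TSLP (thymic stromal lymphopoietin) and IL-7 are 4-helix cytokines that share a receptor subunit. The IL-7 receptor alpha chain, the product of Il7r, pairs with the common gamma chain (Il2rg) to bind IL-7 and with the product of Crlf2 to bind TSLP. Signals pass through JAK kinases to STAT5. TSLP is best known as an epithelial and stromal signal to dendritic cells, T cells and group 2 innate lymphoid cells (ILC2), and IL-7 as a stromal survival factor for lymphocytes.

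The libraries held 1517 and 1687 barcodes with 5137671 and 5563521 UMIs (unique molecular identifiers, 1 per captured transcript), and shared 0 barcode sequences. After filtering, 1445 and 1655 cells fell into 17 clusters, of which 16 were named from marker genes as 11 classes. Macrophage-like cells carried 10 of 10 macrophage markers at a summed 31135 and 29585 CPM (UMIs of the gene scaled to a class total of 1000000), against 3269 CPM in the next class. The dendritic-like class had 10 of 10 dendritic markers at 1620 and 1067 CPM, and fibroblast markers at 3701 CPM in library 1 and 6722 CPM in library 2. A further 25 cells, led by Il13, stayed unnamed.

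In the analysed cells Crlf2 gave 655 UMIs in 534 cells, Il7r 475 UMIs in 289 cells, Tslp 171 UMIs in 153 cells, and Il7 73 UMIs in 63 cells. Crlf2 had UMIs in 11 of the 11 classes, Il7r in 9, Tslp in 7 and Il7 in 6. On GRCm38 the annotation places Crlf2 at chr5:109554709-109558993 and Il7r at chr15:9505788-9530176, both on the minus strand. The promoters of the receptor genes are shown because Crlf2 was found in every class and Il7r mainly in lymphoid ones. The 250 bases before each start in RefSeq, on GRCm38.p6, lie at chr5:109558994-109559243 and chr15:9529877-9530126 and read on the minus strand as follows, with capitals marking GGAA or its complement TTCC, the core that ETS family factors bind.
Crlf2: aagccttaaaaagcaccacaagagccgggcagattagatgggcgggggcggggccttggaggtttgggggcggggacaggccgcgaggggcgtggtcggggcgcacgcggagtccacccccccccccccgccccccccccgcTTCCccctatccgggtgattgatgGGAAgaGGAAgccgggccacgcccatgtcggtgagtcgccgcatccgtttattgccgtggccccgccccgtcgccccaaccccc
Il7r: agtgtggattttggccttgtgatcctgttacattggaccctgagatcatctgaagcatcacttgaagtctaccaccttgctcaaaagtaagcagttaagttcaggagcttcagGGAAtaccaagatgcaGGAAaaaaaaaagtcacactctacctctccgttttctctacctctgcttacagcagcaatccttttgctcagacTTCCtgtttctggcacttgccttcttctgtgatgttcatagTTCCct

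The Il7r window lies inside the Il7r gene as placed above, whose annotated start is farther upstream than the RefSeq one. The Crlf2 window held 3 matches and the Il7r window 4. Of 32851 RefSeq promoters of that length, 93.4% held at least 1 match, with a median of 3, so the letters do not set these genes apart. Base composition differed more. The Crlf2 window was 71.6% G or C, a level reached by 7.35% of promoters, and the Il7r window was 44% G or C, reached by 78.9%.

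Tslp, at chr18:32815383-32819797 on the plus strand, was highest per UMI in macrophage-like cells. It stood at 85.4 CPM in library 1 (30 UMIs, exact Poisson 95% interval 57.6 to 122 CPM) and 80.6 CPM in library 2 (23 UMIs, 51.1 to 121 CPM). Fibroblast-like cells had 20.0 CPM (14.0 to 27.9) and 26.5 CPM (19.2 to 35.7). Both macrophage-like values lay above both fibroblast-like ones, and the means of 83.0 ± 3.39 and 23.3 ± 4.56 CPM (SD, n = 2 libraries each) differed 3.57-fold.

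Because fibroblast-like cells were far more numerous, they held the larger part of the transcripts. Macrophage-like cells gave 53 Tslp UMIs, 31.0% of the total, from 250 cells. Fibroblast-like cells gave 78 UMIs, 45.6%, from 992 cells. A Tslp UMI was found in 16.4% of macrophage-like cells and 7.46% of fibroblast-like cells, at median depths of 2635.5 and 3387.5 UMIs per cell. In lymphoid cells it was found in 0 of 796, at a median depth of 1724.5 UMIs, which allows a share of up to 0.377% and a level of up to 1.85 CPM. Thinned to 1000 UMIs per cell, the shares were 10.1% and 13.3% of macrophage-like cells against 3.28% and 2.56% of fibroblast-like cells in the libraries in turn. The thinning left out 11 macrophage-like and 26 fibroblast-like cells with fewer UMIs. Thinned to 2000 UMIs, the shares were 18.8% of macrophage-like and 3.76% of fibroblast-like cells in library 1, and 3.57% (2 of 56) and 4.74% (17 of 359) in library 2. The order thus turned in library 2 at that depth, where 71 of its macrophage-like cells were left out.

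Below these classes the Tslp levels came close to each other. Blood endothelial-like cells had 12.2 and 11.8 CPM and monocyte-like cells 9.52 and 9.16 CPM, and these pairs did not overlap although they rest on 12 and 7 UMIs. Pericyte-like cells had 6.00 and 2.81 CPM and mesothelial-like cells 4.48 and 3.97 CPM, which overlapped. Both classes were within a few UMIs of 0. T-like, B-like, ILC2-like and NK- or ILC1-like cells had no Tslp UMI in either library.

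**Figure D1:**
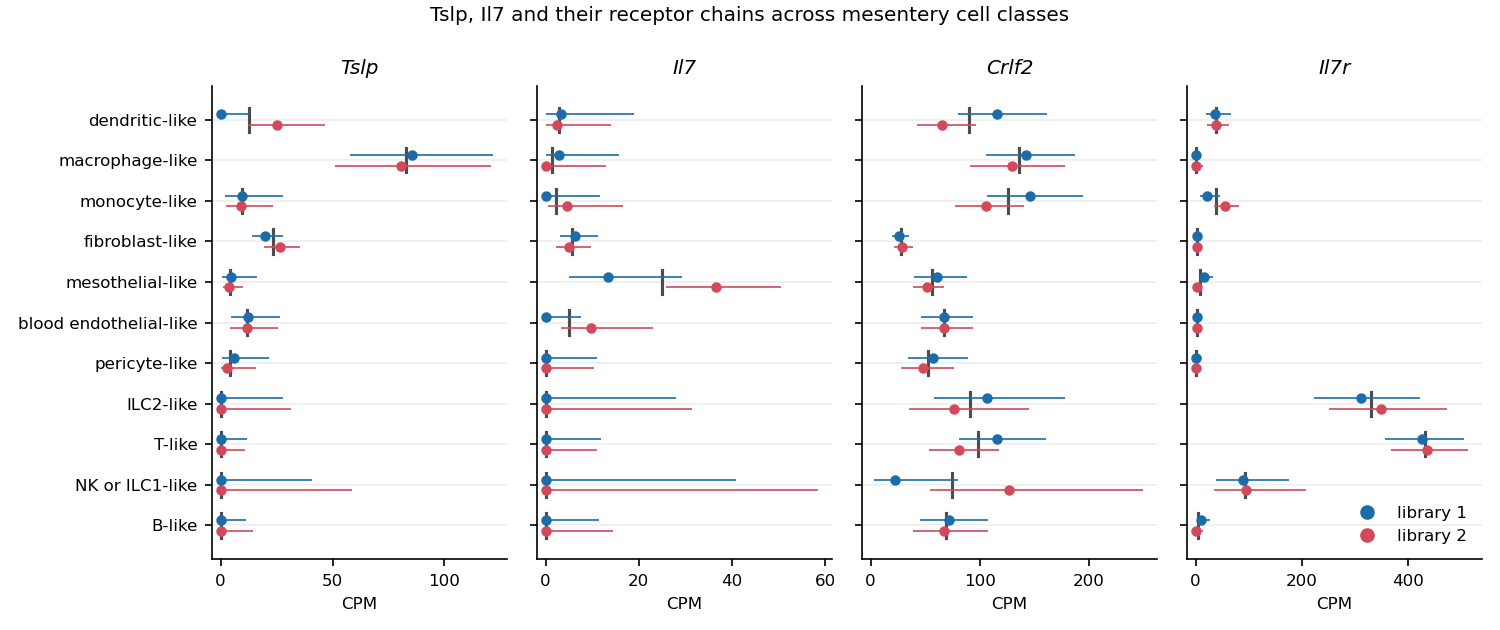
Levels of the 4 genes in the 11 named cell classes, in CPM on linear axes that differ between panels. Points are the 2 libraries with exact Poisson 95% intervals, and short vertical bars are their means. Tslp is highest in macrophage-like cells at 85.4 and 80.6 CPM, Il7 in mesothelial-like cells, and Il7r in T-like and ILC2-like cells, while Crlf2 spreads over every class.

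Dendritic-like cells had Tslp at 25.3 CPM in library 2 (10 UMIs in 10 cells) and 0 UMIs in library 1. The 10 cells with a Tslp UMI carried fibroblast markers at a summed 13900 CPM, with 9 of 9 detected, against 3701 and 5264 CPM in the dendritic-like cells of libraries 1 and 2 without one. Dendritic markers were at 255 CPM with 7 of 10 detected in the cells with Tslp, against 1620 and 1232 CPM with 10 of 10 detected in those without. At clustering resolution 2.0 the dendritic-like cells formed 1 cluster of 31 and 45 cells with 0 Tslp UMIs and another of 21 and 37 cells with 1 and 10. These clusters also took in cells from outside the class, among them the cell with the Tslp UMI in library 1. The Tslp reading of this class sat in barcodes rich in fibroblast transcripts, and their part in it was not tested.

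Among macrophage-like and monocyte-like cells, Tslp was highest on the means in the sub-cluster that carried resident macrophage genes. Macrophage-like and monocyte-like cells were clustered again into 4 sub-clusters without the 4 genes or the pathway lists. Resident and monocyte-derived genes were not left out of that clustering, and several also served as class markers. Their scores thus describe the sub-clusters and are no separate evidence of identity. The largest, 228 cells led by Lyve1 and Folr2, genes of perivascular tissue-resident macrophages, had 14 of the 14 resident genes more than 2-fold above the other myeloid cells. Its Tslp level was 89.0 CPM (28 UMIs, 59.1 to 129 CPM) in library 1 and 74.0 CPM (19 UMIs, 44.5 to 116 CPM) in library 2.

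The other 3 sub-clusters, 186 cells in all, scored higher for the monocyte-derived than for the resident list. Together they had 14.2 and 17.2 CPM of Tslp from 13 UMIs. No library value of the resident sub-cluster overlapped these, and the means of 81.5 ± 10.6 and 15.7 ± 2.11 CPM (SD, n = 2) differed 5.19-fold. The resident sub-cluster held 228 of the 250 macrophage-like cells and 0 monocyte-like cells, so this contrast is mostly that between the 2 classes. Of the 30 and 23 Tslp UMIs of macrophage-like cells, 28 and 19 lay in it. Too few macrophage-like cells lay outside it to compare subsets within the class. The sub-cluster led by Lyz1 and Mmp12 (127 cells) had 10.5 and 21.9 CPM. The one led by Plac8 and Ly6c2, genes of circulating classical monocytes, had 0 UMIs in 41 cells, which allows up to 19.5 CPM over both libraries. The last, 18 cells led by Sparc and Meg3, had 79.3 and 25.2 CPM from 4 UMIs in 2 cells, too few to place it, and had 0 of 10 monocyte-derived genes above 2-fold. Without it the monocyte-list cells had 9.18 and 15.5 CPM from 9 UMIs, and the resident sub-cluster was 6.59-fold higher, a choice made after seeing the data.

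**Figure D2:**
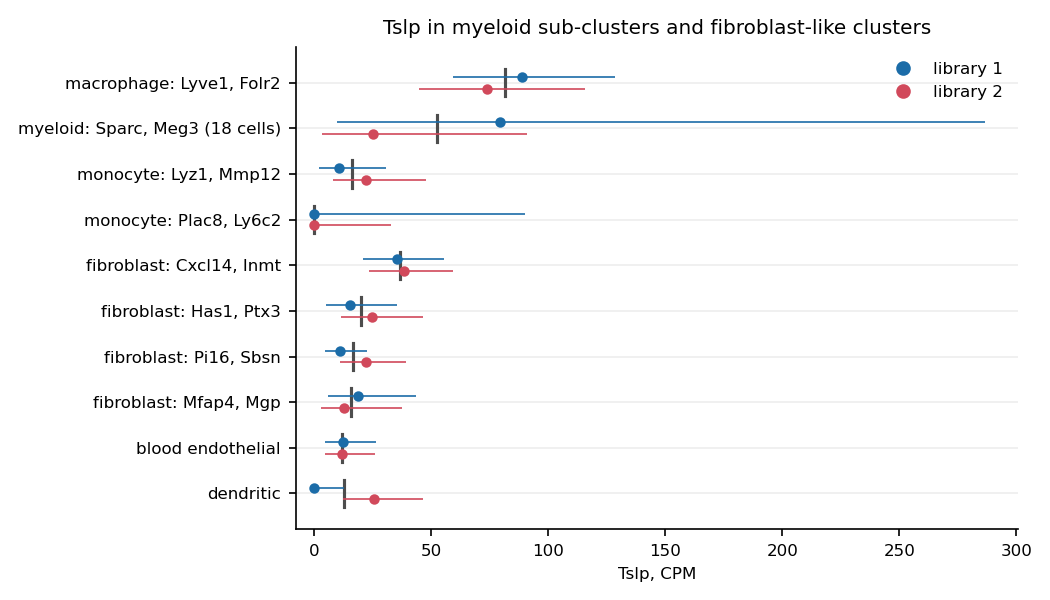
Tslp level in CPM in the 4 sub-clusters of macrophage-like and monocyte-like cells, each labelled by 2 of its leading genes, above the 4 fibroblast-like clusters and the blood endothelial-like and dendritic-like classes. Points are libraries with exact Poisson 95% intervals, and vertical bars are means. The resident sub-cluster lies at 89.0 and 74.0 CPM and the Plac8 and Ly6c2 sub-cluster at 0, with a wide interval.

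Within the macrophage-like class, the 41 cells with a Tslp UMI were set beside the 209 without. Of 14 resident genes, 3 were higher in both libraries without overlap and 11 overlapped. By the same rule 14.4% of all genes with at least 100 UMIs in these cells were higher and 18.1% lower, and among genes with at least 1 UMI 10.6% were higher and 22.1% lower. The count for the resident list is near that background, so it is no result about the list. Folr2, a folate receptor, was at 1674 and 1149 CPM in cells with Tslp and 983 and 983 CPM in cells without. Gas6, a ligand of TAM receptors in apoptotic cell clearance, was at 669 and 541 CPM with Tslp and 350 and 440 CPM without. Cbr2, a carbonyl reductase, was at 893 and 744 CPM with Tslp and 576 and 709 CPM without.

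The most abundant resident genes did not separate the cells. C1qa, a chain of complement C1q, was at 5551 and 4416 CPM with Tslp and 4951 and 4355 CPM without. Of 10 monocyte-derived genes, 3 were lower without overlap and 7 overlapped, most of them at or near 0 in both groups, which is likewise near the background of 22.1%. Ccr2, the receptor that brings monocytes out of the marrow, was at 27.9 and 0 CPM with Tslp and 132 and 120 CPM without. Lyz1 was at 55.8 and 0 CPM with Tslp and 75.1 and 74.7 CPM without, and Fn1 at 0 in both libraries with Tslp and 125 and 16.6 CPM without. A count of 0 in cells with Tslp allows up to 41.8 CPM in library 1 and 67.6 CPM in library 2, so the Fn1 difference was not detectable at this depth in library 2. Genes of large peritoneal macrophages were close to absent, with at most 2 UMIs in a group. Of 6 such genes 1 was higher without overlap, Prg4, at 13.9 and 22.5 CPM with Tslp and 0 in both libraries without, on 1 UMI in each library. Gata6, their defining factor, was at 0 and 22.5 CPM with Tslp and 0 in both libraries without.

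**Figure D3:**
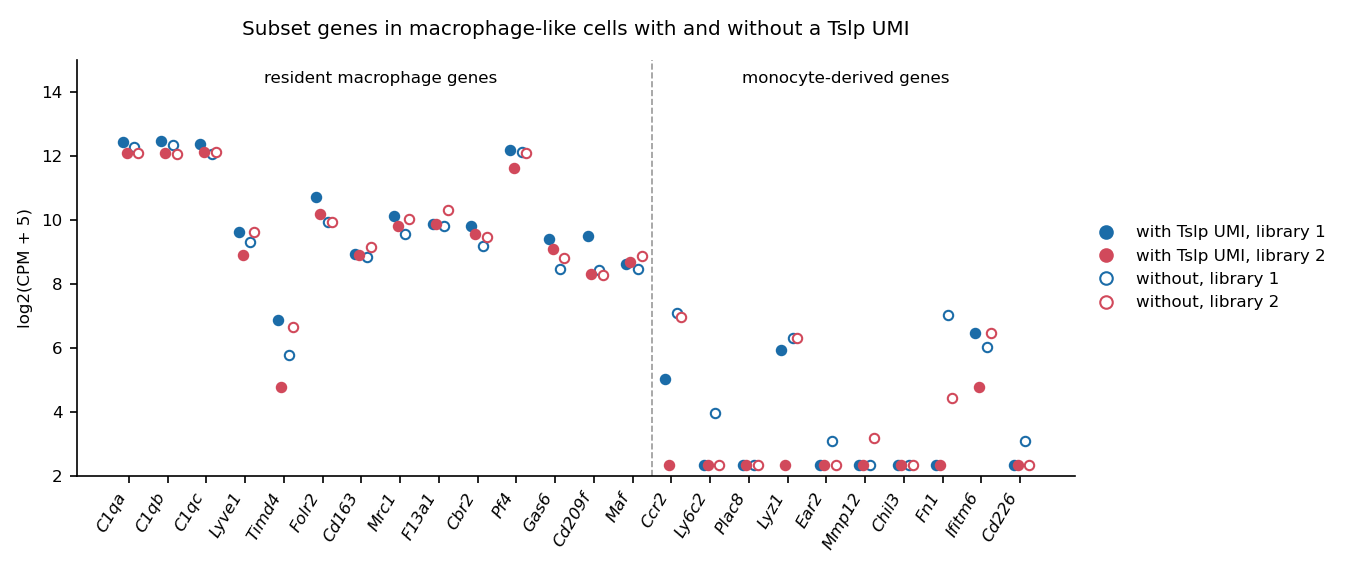
Level of 14 resident and 10 monocyte-derived genes as log2(CPM + 5) in macrophage-like cells with a Tslp UMI (filled) and without one (open), for each library. Folr2, Cbr2 and Gas6 lie higher, and Ccr2 and Lyz1 lower, in cells with Tslp in both libraries. Fn1 has no UMI in cells with Tslp, and the other resident genes overlap.

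Markers of other cell types were measured in the same cells. Fibroblast markers summed to 97.6 and 90.1 CPM with Tslp and 211 and 137 CPM without, with 3 and 4 of 9 detected with Tslp and 9 and 7 without. Col1a1, a collagen gene of fibroblasts, had 1 and 0 UMIs in macrophage-like cells beside 30 and 23 Tslp UMIs. In fibroblast-like cells it had 2200 and 2655 UMIs beside 35 and 43 Tslp UMIs.

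Blood endothelial markers moved the other way. They summed to 293 and 834 CPM in macrophage-like cells with Tslp and 50.0 and 207 CPM in those without, with 8 and 11 of 11 detected with Tslp and 5 and 11 of 11 without. Blood endothelial-like cells themselves held 12.0 ± 0.265 CPM of Tslp (SD, n = 2). Without the barcodes that held an endothelial marker UMI, Tslp in the remaining 211 macrophage-like cells was 82.7 ± 3.95 CPM. Without barcodes that held a UMI of either marker list, it was 99.1 ± 5.44 CPM in 144 cells (SD, n = 2). Those sets of cells were chosen after seeing the data. A barcode without a marker UMI can still hold transcripts of other cells at this depth. The part of such transcripts in the Tslp level was not tested. Depth per cell was similar, with medians of 3078.5 and 1785 UMIs with Tslp and 2843 and 1837.5 UMIs without.

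Tslp readings differed among the fibroblast-like clusters. The cluster led by Cxcl14 and Inmt had 35.2 and 38.3 CPM from 38 UMIs. The clusters led by Has1, by Pi16 and by Mfap4 had 15.1 and 24.6, 11.0 and 22.0, and 18.6 and 12.8 CPM. These rest on 14, 18 and 8 UMIs. The Cxcl14 cluster lay above the other 3 in both libraries, and was 2.22-fold above the Pi16 cluster on the means. Its counting intervals, 20.8 to 55.6 and 23.4 to 59.1 CPM, overlapped those of the other 3 in each library.

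Il7, at chr3:7569994-7613760 on the minus strand of the same build, was highest per UMI, by class, in mesothelial-like cells, which cover the mesentery as a sheet. They gave 43 of the 73 UMIs, 58.9%, at 13.4 CPM in library 1 (6 UMIs, 4.93 to 29.2 CPM) and 36.7 CPM in library 2 (37 UMIs, 25.8 to 50.6 CPM). The level was 2.73-fold higher in library 2, which held 177 mesothelial-like cells against 67 in library 1, and the counting intervals overlapped. Fibroblast-like cells had 6.30 and 4.93 CPM from 19 UMIs, below both mesothelial-like values. In library 1 they gave more of the UMIs, 11 against 6, and the counting intervals of both classes overlapped (fibroblast-like 3.14 to 11.3 CPM). Thinned to 2000 UMIs per cell, 0 of 62 mesothelial-like and 7 of 425 fibroblast-like cells held Il7 in library 1. In library 2 these were 10 of 164 and 2 of 359. The mean of 25.1 ± 16.4 CPM in mesothelial-like cells and 5.61 ± 0.968 CPM in fibroblast-like cells (SD, n = 2) differed 4.46-fold, and 2.13-fold in library 1 alone.

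Among fibroblast-like cells, the Has1 cluster had 18.1 and 8.19 CPM from 9 UMIs, and the Cxcl14 cluster 1.95 and 1.91 CPM from 2 UMIs. In library 1 the Has1 cluster (6 UMIs, 6.64 to 39.4 CPM) lay above the mesothelial-like 13.4 CPM, also from 6 UMIs. Il7 was sparse in the other classes. Blood endothelial-like cells had 0 and 9.84 CPM, with 5 UMIs in 3 cells of library 2. Dendritic-like, monocyte-like and macrophage-like cells had 2, 2 and 1 UMIs. Pericyte-like and lymphoid cells had none, and 0 of 796 lymphoid cells allows up to 1.85 CPM.

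An RNA annotated on the opposite strand of Il7, Gm16685, showed a like distribution. It had 53 UMIs in named classes, at 15.7 and 29.7 CPM in mesothelial-like cells and 2.29 and 4.93 CPM in fibroblast-like cells. The sources used here do not say whether counting used strand, so reads of the overlapping pair may not be separable. The gene opposite Tslp, 4930455D15Rik, had 0 UMIs in these classes.

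Crlf2, the chain that makes the receptor specific for TSLP, was the most widely detected of the 4. Macrophage-like cells had 142 and 130 CPM, monocyte-like cells 146 and 105 CPM, and T-like cells 116 and 81.2 CPM. ILC2-like cells had 106 and 76.7 CPM and dendritic-like cells 115 and 65.8 CPM. Each of these classes overlapped the next in the order of means. Macrophage-like cells lay above both libraries of T-like, ILC2-like and dendritic-like cells. Macrophage-like and monocyte-like cells changed places between the libraries, as did ILC2-like and dendritic-like cells.

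The low end of the order was clearer. B-like, blood endothelial-like, mesothelial-like and pericyte-like cells averaged 69.5, 67.0, 56.0 and 52.4 CPM. Fibroblast-like cells were lowest in the order of means, at 26.3 and 28.9 CPM, below both libraries of each class but NK- or ILC1-like cells. That class, with 10 UMIs, had 22.2 and 127 CPM. Macrophage-like over fibroblast-like means differed 4.92-fold. No class lacked Crlf2, so none served as a measure of free RNA. The fibroblast-like share of cells with a UMI after thinning was 2.84% and 2.17%, and the macrophage-like share 10.9% and 14.2%.

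Il7r was concentrated in lymphoid cells. T-like cells had 426 CPM (132 UMIs, 357 to 505 CPM) and 436 CPM (145 UMIs, 368 to 513 CPM), and ILC2-like cells 312 CPM (224 to 423) and 349 CPM (251 to 474). The T-like values lay above the ILC2-like ones in both libraries, with means of 431 ± 7.05 and 330 ± 26.6 CPM (SD, n = 2). The means differed 1.30-fold, and the counting intervals overlapped. Il7r UMIs were found in 45.3% of T-like and 42.0% of ILC2-like cells, at median depths of 1612 and 1863 UMIs, against 0 of 250 macrophage-like cells at 2635.5 UMIs.

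NK- or ILC1-like cells had 88.7 and 95.2 CPM and stood 3.59-fold below ILC2-like cells. B-like cells had 3 UMIs, all in 1 cell, so Il7r was low in that lymphoid class. Dendritic-like cells had 37.3 and 37.9 CPM and monocyte-like cells 22.2 and 55.0 CPM. Inside the myeloid cells most Il7r UMIs, 27, lay in the Lyz1 and Mmp12 sub-cluster, at 21.0 and 76.8 CPM. The Sparc and Meg3 sub-cluster had 39.7 and 25.2 CPM from 3 UMIs, and the Plac8 and Ly6c2 sub-cluster 1 UMI. The resident sub-cluster, where Tslp was highest, had 0 Il7r UMIs in 228 cells, which allows up to 5.25 CPM.

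The T-like class was uneven. Its smaller cluster, 83 cells led by Cd163l1, a scavenger receptor gene known from gamma-delta T cells, had 817 and 1201 CPM of Il7r. The larger, 257 cells with Cd28 and Cd40lg, had 337 and 214 CPM. The clusters did not overlap, and the smaller was 2.42-fold higher in library 1 and 5.62-fold in library 2. Il7r itself was kept out of the clustering, but genes that vary with it were not. Crlf2 was at 139 and 133 CPM in the smaller cluster and 111 and 66.0 CPM in the larger.

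**Figure D4:**
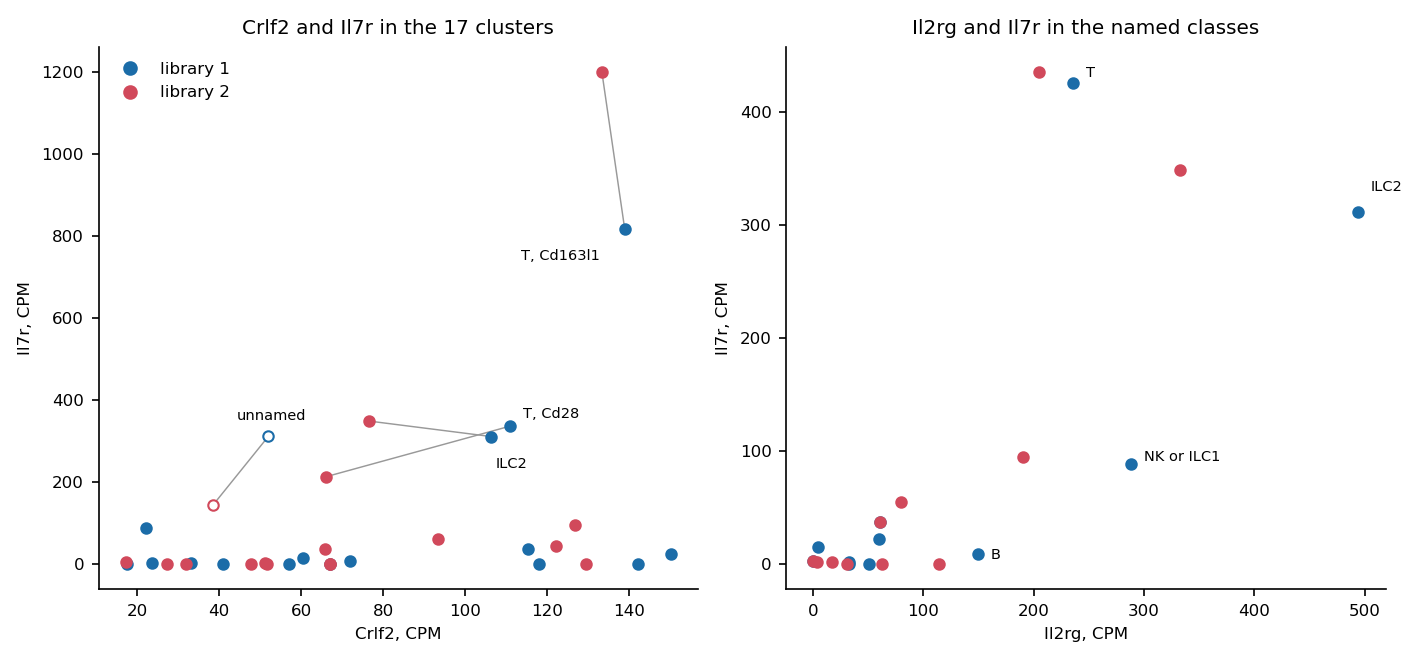
Receptor chains in CPM on linear axes. Left, Crlf2 against Il7r in the 17 clusters, 1 point per library, with lines joining the libraries of labelled clusters and open points for the unnamed one. Right, Il2rg against Il7r in the 11 named classes. The Cd163l1 cluster stands at 817 and 1201 CPM of Il7r, and clusters with Crlf2 above 120 CPM range from 0 Il7r upward.

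A TSLP receptor needs Crlf2 and Il7r in the same cell. Both transcripts were caught in 7 of 131 ILC2-like cells, against 9.14 expected from the product of the single shares, and in 26 of 340 T-like cells, against 25.8 expected. Monocyte-like cells had both in 10 of 164, against 8.67 expected, and dendritic-like cells in 6 of 128, against 4.81 expected. In each of these 4 classes the count was near the product. Macrophage-like cells had Crlf2 in 67 of 250 cells and Il7r in none.

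The IL-7 receptor pair, Il7r with Il2rg, was caught in 29 of 131 ILC2-like cells, against 26.6 expected, and in 62 of 340 T-like cells, against 49.4 expected. Thinned to 1000 UMIs per cell, Crlf2 and Il7r were found together in 3.23% ± 0.579 of ILC2-like and 1.88% ± 0.0497 of T-like cells (SD, n = 2). Il7r and Il2rg were found together in 7.25% ± 7.68 of ILC2-like and 6.54% ± 2.04 of T-like cells. Within macrophage-like cells, Tslp and Crlf2 were caught together in 11 of 250, against 11.0 expected.

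The genes whose levels ran most like each member were found over 22 sums, 11 classes in 2 libraries, among 8338 genes. The sums share libraries and lineages, and Pearson r on log2(CPM + 5) is a description. For Tslp they were Sepp1 (r = 0.884), a selenium carrier, then AI607873, Hmox1, which degrades heme, Igf1 and Hpgd, each highest in macrophage-like cells. For Il7 they were Cfb (r = 0.903), complement factor B, then Scrn1, Adamtsl1, Rspo1 and Fam46b, each highest in mesothelial-like and next in fibroblast-like cells. For Il7r they were D16Ertd472e (r = 0.932), Emb, Lat, Icos and Skap1, highest in T-like or ILC2-like cells. Crlf2 had less close matches, led by Dock8 (r = 0.833), then Ucp2, Atp2b1, Bax and Vrk2.

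The rest of the pathway was read from 5 lists of 57 genes, which were kept out of the clustering, and 43 of them passed the filter on low counts. They cover receptor signalling, other gamma-chain cytokines and receptors, regulators of Il7r, inducers of Tslp, and genes that TSLP induces in dendritic cells. Sums per class and library were compared with edgeR's quasi-likelihood test, with p-values adjusted over all 7747 genes tested. Classes were formed from other genes of the same cells, and the lists were chosen with earlier results of these data known. These calls thus describe how list genes follow the classes. The choice of lists could raise the shares called, so those shares are no test of the lists.

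Levels of the signalling chain framed these comparisons. Il2rg, the common gamma chain, was at 494 and 332 CPM in ILC2-like cells and 236 and 205 CPM in T-like cells. Jak1, the kinase bound to the IL-7 receptor alpha chain, had 2494 UMIs and was found in every class. Jak3, the kinase bound to the gamma chain, had 44 UMIs in all, with 0 in ILC2-like cells, 0 in NK- or ILC1-like cells and 1 in T-like cells. A count of 0 allows up to 12.1 CPM in ILC2-like and 19.6 CPM in NK- or ILC1-like cells, so absence is not shown.

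Fibroblast-like cells, the larger Tslp source, differed from mesothelial-like cells, the class with the highest Il7 level, in 7 list genes that were higher and 5 that were lower of 43. Among all genes, 14.4% were called higher and 19.1% lower, so neither share stands far from the background. The median log2 fold was 0.23 over the lists, or 0.13 with genes that a group lacked set at their bounds, and -0.09 over all genes. Inducers of Tslp gave 4 of the higher calls from 8 tested and none of the lower.

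Il1r1, the receptor for IL-1, was at 79.0 and 113 CPM in fibroblast-like cells and 13.4 and 11.9 CPM in mesothelial-like cells (log2 fold 3.01, SE 0.35, adjusted p = 4.24e-09). Runx1, a transcription factor that acts on Il7r in T cells, was at 79.0 and 86.2 CPM against 17.9 and 15.9 CPM in mesothelial-like cells (log2 fold 2.38, SE 0.28, adjusted p = 2.62e-09). Stim1, a calcium sensor of store-operated entry, was at 23.5 and 32.0 CPM against 8.95 and 15.9 CPM in mesothelial-like cells (log2 fold 1.16, SE 0.40, adjusted p = 0.022). The Stim1 call was lost with no replicate block (adjusted p = 0.0549) and with DESeq2's Wald test (adjusted p = 0.186). Jak1, Tnfrsf1a, Nfkb1 and Mcl1 were higher by 0.56 to 1.00 on the log2 scale, with Nfkb1 and Mcl1 lost without the block (adjusted p = 0.0522 and 0.0753).

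On the lower side, Cish, a STAT5 target and inhibitor, was at 26.9 and 25.9 CPM against 80.6 and 104 CPM in mesothelial-like cells (log2 fold -1.73, SE 0.28, adjusted p = 2.2e-06). Il2rg rested on 2 UMIs against 6, a ratio of 0.144 with a counting interval of 0.0142 to 0.805, and changed sign under 2 of 8 alternatives (adjusted p = 0.0406). Pik3r1 and Foxo1 were also lower, by log2 folds of -1.35 and -0.66, the Foxo1 call being lost with DESeq2's Wald test (adjusted p = 0.155) and with no filter on low counts (adjusted p = 0.175).

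ILC2-like cells, compared with T-like cells, had higher levels of Nfkb1, Lyn and Bach2 and lower levels of Il21r, Socs3 and Klf2. Of 43 list genes, 12 were higher and 7 lower, where 4.27% of all genes were called higher and 2.89% lower. The receptor signalling list held 6 of the higher and 3 of the lower calls from 18 tested. The median log2 fold was 0.01 over the lists, or 0 with absent genes at their bounds, and -0.23 over all genes. With DESeq2 size factors the all-gene median moved to -0.06 and the calls split into 404 higher and 159 lower, against 331 and 224 with TMM factors.

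Lyn, a Src family kinase, was at 76.0 and 128 CPM in ILC2-like cells and 12.9 and 18.0 CPM in T-like cells (log2 fold 2.82, SE 0.56, adjusted p = 0.000425). Bach2, a repressor of effector programmes, was at 106 and 68.2 CPM against 9.69 and 18.0 CPM in T-like cells (log2 fold 2.80, SE 0.61, adjusted p = 0.00138). Nfkb1, which encodes the NF-kB subunit p105 and its product p50, was at 2075 and 1968 CPM against 323 and 361 CPM in T-like cells (log2 fold 2.71, SE 0.22, adjusted p = 1.87e-12). In the receptor signalling list, Socs2 rose by 2.34, Cish by 1.49 and Pim1 by 1.35 on the log2 scale. In the same list Stat5a had 3 UMIs against 37 in T-like cells (adjusted p = 0.127) and Stat5b 1 against 27 (adjusted p = 0.0626), and Bcl2 had a log2 fold of -0.82 (adjusted p = 0.103), none of them called. Il2ra, the IL-2 receptor alpha chain, rose by 1.63, Il4ra by 1.47, Jak2 by 1.28 and Il2rg by 1.06, and Pdcd1lg2 by 2.28 and Rela by 1.47.

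Il21r, the IL-21 receptor, had 0 UMIs in ILC2-like cells and 187 and 180.5 CPM in T-like cells, at least 15.2-fold lower against a floor of 3 counts over the class (adjusted p = 8.34e-07). Il1r1 also had 0 UMIs, against 35.5 and 33.1 CPM in T-like cells, at least 2.84-fold lower (adjusted p = 0.049), a call lost under 5 of 8 alternatives. Tnfrsf1a rested on 1 UMI against 32, a ratio of 0.0806 with a counting interval of 0.00198 to 0.483 (adjusted p = 0.0216), lost under 3 of 8 alternatives. Socs3, a STAT3 target, was at 15.2 and 25.6 CPM against 213 and 156 CPM in T-like cells (log2 fold -3.04, SE 0.52, adjusted p = 4.06e-05). Klf2, a factor of quiescent, recirculating T cells, was at 76.0 and 59.6 CPM against 481 and 490.2 CPM in T-like cells (log2 fold -2.71, SE 0.34, adjusted p = 9.76e-08). Pik3r1 was lower by a log2 fold of -1.20, a call lost with DESeq2 size factors (adjusted p = 0.0668).

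Dendritic-like cells, the classical responders to TSLP, were compared with macrophage-like cells. Of 43 list genes, 11 were higher and 8 lower, beside 13.6% and 10.6% of all genes. The median log2 fold was 0.16 over the lists, or 0.13 at the bounds, and 0.15 over all genes, which moved to 0.04 with DESeq2 size factors. Among genes that TSLP induces in dendritic cells, 3 of 6 tested were higher and 1 lower.

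Ccl17 and Ccl22 encode chemokines that attract CCR4-bearing T cells. Ccl17 was at 845 and 597 CPM in dendritic-like cells and had 0 UMIs in macrophage-like cells, at least 149-fold higher (adjusted p = 3.5e-17). Ccl22 was at 825 and 685 CPM in dendritic-like cells, against 5.69 and 0 CPM, a ratio of 237 with a counting interval of 65.3 to 1964 (adjusted p = 6.7e-17). Neither was called by DESeq2's Wald test (adjusted p = 0.384 and 0.254). Il1r1 was at 98.5 and 35.4 CPM against 0 UMIs in macrophage-like cells, at least 13.2-fold higher (adjusted p = 6.19e-06), in a class that also carried the fibroblast markers given above, whose part was not tested.

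In the receptor signalling list Socs2, Jak2, Stat5a and Cish were higher in dendritic-like cells by 4.13, 2.93, 2.28 and 1.86 on the log2 scale, and Cish lost the call with DESeq2's Wald test (adjusted p = 0.0659). Fibroblast-like cells held Socs2 at 85.9 and 67.1 CPM, beside 71.3 and 162 CPM in dendritic-like and 5.69 and 7.01 CPM in macrophage-like cells. Their Jak2, Stat5a and Cish levels lay below the dendritic-like ones in both libraries. The part of fibroblast transcripts was not tested. Il2ra had 9 UMIs against 0 in macrophage-like cells, at least 2.77-fold higher (adjusted p = 0.015). Stat5b, Pim1, Socs1 and Jak1 were not called (adjusted p = 0.384, 0.655, 0.0742 and 0.145). Cd80, a costimulatory ligand, rose by 2.22 and Socs3 by 0.82. Socs3 was at 441 and 556 CPM in dendritic-like and 233 and 312 CPM in macrophage-like cells, with 1135 and 1295 CPM in fibroblast-like cells, whose markers the dendritic-like class carried, and their part was not tested. Ets1 rose by 1.81 with 21 UMIs against 5, a call lost under 7 of 7 alternatives, and those of Cd80 and Socs3 were lost with the stricter cell filter (adjusted p = 0.138 and 0.179). Bcl2 was at 10.2 and 15.2 CPM in dendritic-like cells and 42.7 and 49.0 CPM in macrophage-like cells (log2 fold -1.87, SE 0.52, adjusted p = 0.00617). Cd86, the other CD28 ligand, was at 119 and 101 CPM against 313 and 382 CPM in macrophage-like cells (log2 fold -1.73, SE 0.22, adjusted p = 1.22e-07). Mcl1, a survival factor, was at 401 and 498 CPM against 1195 and 1492 CPM in macrophage-like cells (log2 fold -1.63, SE 0.21, adjusted p = 5.11e-08). Runx1, Il4ra, Foxp1, Tnfrsf1a and Stat3 were lower by log2 folds of -1.27 to -0.69, and the stricter cell filter ended the calls of Il4ra, Foxp1 and Tnfrsf1a (adjusted p = 0.0504, 0.0631 and 0.0934).

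**Figure D5:**
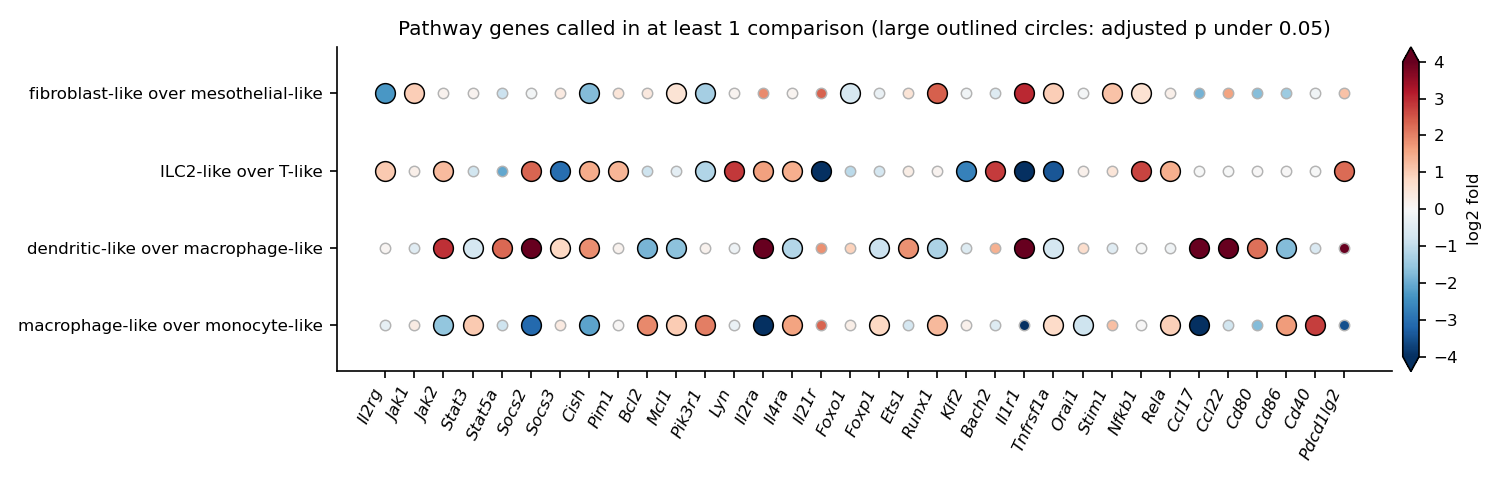
Log2 folds of 34 list genes called in at least 1 of 4 comparisons, the first-named class over the second. Large outlined circles are calls at an adjusted p under 0.05 in edgeR and small ones are not. Colour stops at 4 log2 units, since fits of genes that a class lacks are not bounds. Socs2, Cish and Jak2 are higher in ILC2-like than T-like and in dendritic-like than macrophage-like cells, and lower in macrophage-like than monocyte-like cells.

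Macrophage-like cells, high in Tslp, were compared with monocyte-like cells, which held 9.34 ± 0.254 CPM of it (SD, n = 2), 8.88-fold less. Of 43 list genes, 11 were higher and 6 lower, where 8.83% and 9.71% of all genes were called. The median log2 fold was 0.05 over the lists, also at the bounds, and -0.07 over all genes. Over all genes 684 were higher and 752 lower, and with DESeq2 size factors 830 and 541. Of 8 inducers of Tslp tested, 3 were higher and 1 lower.

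Cd40, a costimulatory receptor, was at 65.4 and 49.0 CPM in macrophage-like cells and 3.17 and 11.5 CPM in monocyte-like cells (log2 fold 2.76, SE 0.69, adjusted p = 0.0036), not called by DESeq2's Wald test (adjusted p = 0.0934). Pik3r1, the regulatory subunit of PI3 kinase, was at 82.5 and 80.6 CPM against 34.9 and 9.16 CPM in monocyte-like cells (log2 fold 2.05, SE 0.43, adjusted p = 0.00044), lost at clustering resolution 0.5 (adjusted p = 0.14). Bcl2 was at 42.7 and 49.0 CPM against 15.9 and 9.16 CPM in monocyte-like cells (log2 fold 1.94, SE 0.52, adjusted p = 0.00607). Among inducers, Il4ra, which carries IL-4 and IL-13 signals, rose by 1.61, Rela by 0.95 and Tnfrsf1a, the TNF receptor, by 0.76 on the log2 scale. Rela and Tnfrsf1a lost the call with the stricter cell filter (adjusted p = 0.106 and 0.0737). Cd86, Runx1, Stat3, Mcl1 and Foxp1 were higher by 0.83 to 1.69, with Foxp1 lost under that filter (adjusted p = 0.0687).

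Ccl17 had 0 UMIs in macrophage-like cells and 28.6 and 16.0 CPM in monocyte-like cells, at least 4.52-fold lower (adjusted p = 0.00173), a call that turned when doublets were kept and was lost with the stricter cell filter (adjusted p = 0.248). Il2ra had 0 UMIs against 7, at least 1.98-fold lower (adjusted p = 0.0473), and lost the call under 4 of 8 alternatives. Socs2 was at 5.69 and 7.01 CPM in macrophage-like cells and 34.9 and 75.6 CPM in monocyte-like cells (log2 fold -3.12, SE 0.72, adjusted p = 0.00132). Cish and Jak2 were lower too, by log2 folds of -2.15 and -1.58, the Cish call being lost with the stricter cell filter (adjusted p = 0.0619). Orai1, the pore of store-operated calcium entry, fell by 0.82, a call lost under 5 of 8 alternatives.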

How the data were processed

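The authors deposited raw UMI counts for 27998 genes in 3204 barcodes, as whole numbers with no normalization, and the barcode suffix gives the library (1517 and 1687 barcodes, medians of 3065 and 2663 UMIs). Cell Ranger and mm10 are named per the submitters' processing notes, and versions and other settings are not given in the sources used here. The 4 genes and the lists were chosen with earlier results of these data known.

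From these counts, cells with under 200 genes or over 10% mitochondrial counts were dropped (61 barcodes), and Scrublet then removed 39 and 4 doublets, with thresholds of 0.163 and 0.312 set separately in each library. The remaining 3100 cells were scaled to 10000, reduced to 2000 variable genes and 30 components, and clustered with scanpy 1.11.5 (15 neighbours, Leiden resolution 1.0). The 4 genes and the pathway lists, 61 genes in all, were left out of the clustering. Clusters were named from marker lists, needing at least 3 markers above 2-fold. Of the list and marker genes, 6 did not match exactly 1 row and were not used.

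Levels are CPM of summed counts per class and library. Exact Poisson and Clopper-Pearson 95% intervals, and the limit of 3 counts for a count of 0, cover counting error only. Shares of cells were also taken after thinning to 1000 UMIs. Class sums were tested with edgeR 4.0.16 (TMM factors, filter on low counts, library as a block, since both classes of a comparison come from the same mouse). With library as a block, p-values rest on the spread that remains between the 2 sums of a class once the shared library difference is taken out. That spread was estimated over all 11 classes, and it covers only these 2 mice. Alternatives were DESeq2 1.42.0, other size factors, no filter, no block, other clustering resolutions, a stricter cell filter (500 genes, 5% mitochondrial), no doublet removal and each library alone. The procedure was tested on simulated counts. Genes named are the 4 genes, the 5 genes of highest correlation with each among those with at least 100 UMIs, and the called list genes, with up to 3 per direction in full. The result of 1 list gene is not reported here, although the counts over the lists include that gene.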

Additional observations from a re-analysis of the deposited data

Results flagged for a closer look

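The unnamed cluster of 25 cells, which enters no comparison, held Il7r at 312 CPM in library 1 (6 UMIs in 4 cells) and 144 CPM in library 2 (15 UMIs in 21 cells). Both values lie above the limit that a count of 0 allows there, 156 and 28.8 CPM, and 14 of the 25 cells had an Il7r UMI. Their median depth was 5043 UMIs, against 1863 in ILC2-like and 1612 in T-like cells. Cells that Scrublet called doublets had been removed before clustering, 4 of them from the whole of library 2, and doublets it missed were not tested for. Its leading gene was Il13, a type 2 cytokine, and its Crlf2 level was 52.0 and 38.4 CPM.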

How the results depend on the processing

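Of the 67 calls of list genes, 40 held under every alternative run and 27 were lost under at least 1. Calls that turned were Il2rg in fibroblast-like over mesothelial-like cells, at log2 folds of 0.40 at resolution 0.5 and 0.75 with no doublet removal, and Ccl17 in macrophage-like over monocyte-like cells, at 0.89 with no doublet removal. Tslp in macrophage-like cells was 94.7 CPM with the stricter cell filter and 99.1 CPM without barcodes holding endothelial or fibroblast markers. In the monocyte-list sub-clusters it was 20.2 CPM with the stricter filter, 11.1 CPM with no doublet removal and 12.4 CPM without the Sparc and Meg3 sub-cluster. Il7r in T-like cells was 366 CPM at resolution 0.5 and 397 CPM with the stricter filter. Without thinning, and thinned to 2000 UMIs, Crlf2 and Il7r were together in 5.45% and 4.03% of ILC2-like and 7.73% and 3.22% of T-like cells, and Il7r and Il2rg in 22.0% and 18.0% of ILC2-like and 18.1% and 22.4% of T-like cells. Thinning also leaves out shallower cells. DESeq2's Wald test called 1508 genes in fibroblast-like over mesothelial-like cells, against 2597 in edgeR. With no replicate block the calls numbered 2264, 491, 1746 and 1202, against 2597, 555, 1874 and 1436 with it, in the order fibroblast-like, ILC2-like, dendritic-like and macrophage-like. The cause was not tested.

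With 1 library left out, Tslp ranged over 80.6 to 85.4 CPM in macrophage-like, 20.0 to 26.5 in fibroblast-like, 74.0 to 89.0 in resident and 14.2 to 17.2 in monocyte-list cells. Il7 in mesothelial-like cells ranged over 13.4 to 36.7 CPM, and Il7r over 426 to 436 in T-like and 312 to 349 in ILC2-like cells. The pairs in the same order ranged over 2.82 to 3.64%, 1.84 to 1.91%, 1.82 to 12.7% and 5.10 to 7.98%. A single library leaves no residual degrees of freedom, so it gave no count of calls. At resolution 0.5 no dendritic-like class formed. Depth limits Tslp and Il7 most, with 171 and 73 UMIs in all.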
